A study of Mus musculus with 10 samples.

Results

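Intermediate filament genes outside the keratin family were followed in bulk RNA-seq of sarcomas from mouse models. The 10 genes, of 56750 features in the count table, were Nefl, Nefm, Nefh, Ina, Prph, Nes, Vim, Des, Gfap and Synm. The list was chosen from a comparison of these same tumors whose results were already known, in which Nefl was among the largest differences, so the values of the 10 genes for dFLEx against KP are given as a description and support nothing beyond it. The dFLEx group held 3 tumors (170019, 170024 and 170025) of genotype dFLEx CDS +/-. In these mice a CIC::DUX4 fusion with an HA tag stands under the CAG promoter, and it is put in reading frame only after both Cre and FLP have acted. The tumors were started in the hind limb muscle of young adult mice by electroporating the plasmids pCAG-Cre and pCAG-FLPE, so the fusion was not tied to a chosen cell type. The KP group held 2 tumors (3800 and 3802) of the KP model, which carries the p53fl/fl alleles that Cre removes, and the sources used here do not describe how these sarcomas were started. All 5 tumors came from mice of a Cre-dependent model and had no drug treatment in their labels. Per the labels, the RNA of a tumor was divided into duplicate libraries. The duplicates were pooled here, so that the tumor was the replicate.

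Intermediate filaments are ropelike polymers of coiled-coil proteins, and which protein a cell builds them from follows its lineage. Nefl, Nefm and Nefh encode the light, medium and heavy neurofilament chains of neurons, where the light chain forms the core to which the longer chains add their tails, and Ina (alpha-internexin) and Prph (peripherin) join them in central and peripheral neurons. Vim (vimentin) is the filament protein of mesenchymal cells, Des (desmin) that of muscle, where it ties Z-discs together, and Gfap (glial fibrillary acidic protein) that of astrocytes and some Schwann cells. Nes (nestin) marks neural and muscle progenitors and needs a partner such as vimentin to polymerize, and Synm (synemin) links desmin or vimentin filaments to membrane complexes in muscle.

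Library totals ran from 20503474 to 46302223 counts, and tumor 3802 is represented by 1 library, which had the lowest total and the most features with a count (36904). Reads of the CIC_DUX4 feature, which check the labels, numbered 4238, 11623 and 33600 in dFLEx tumors 170019, 170024 and 170025, 0 in KP tumor 3800 and 6 in KP tumor 3802. The levels below are counts scaled to a common total (CPM) after TMM scaling, a correction for differences in RNA composition between libraries. Of the 24743 genes tested with edgeR's quasi-likelihood test, 20 were lower in dFLEx (0.0808%) and 25 higher (0.101%) at an adjusted p below 0.05. The median log2 fold change over all 24743 was -0.18. An unadjusted p below 0.05 with edgeR was reached by 10.6% of them, and DESeq2 on tumor sums called 1516. The counts given for each gene list below stand beside these background counts.

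All 10 members passed the filter on low counts. Nefl was called lower in dFLEx than in KP tumors and none of the other 9 was called. Of all tested genes, 0.0808% were called lower and 0.101% higher. Every dFLEx tumor lay below every KP tumor for 3 members (Nefl, Nefm and Nes), against 11.7% of the tested genes, and above every KP tumor for 1 member (Synm), against 13.7%. The 2 groups overlapped for the other 6. An unadjusted p below 0.05 was reached by 4 members, against 10.6% of the tested genes. Since the list was made with this contrast known, nothing was read from these counts. The members' median log2 fold change was -0.27.

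**Figure D1:**
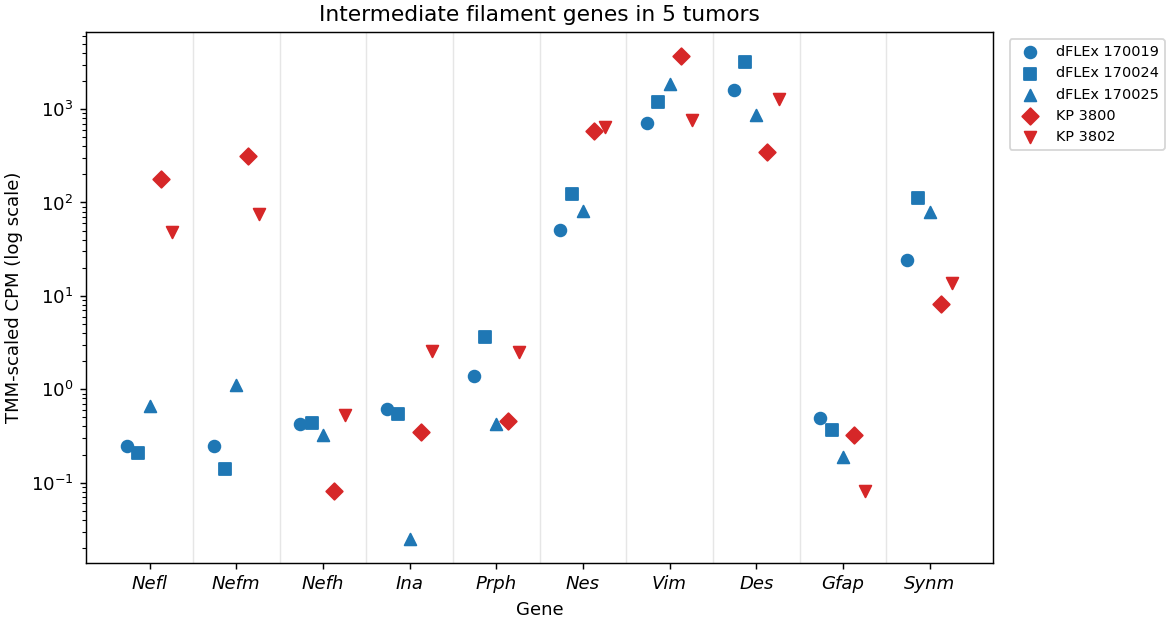
TMM-scaled CPM (log scale) of the 10 genes in each of 5 tumors, with dFLEx tumors in blue and KP tumors in red. Nefl and Nefm stood at 1.11 CPM or less in all dFLEx tumors and at 48.8 CPM or more in KP tumors, while Vim and Des were abundant in all 5.

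The neurofilament light and medium chains were at trace level in the dFLEx tumors and readily measured in both KP tumors. Nefl stood at 0.249 CPM in 170019, 0.208 in 170024 and 0.655 in 170025, from 10, 12 and 52 reads, and at 179 CPM in 3800 and 48.8 CPM in 3802, from 13335 and 1200 reads. The groups did not overlap, and the lower KP tumor was 74.4-fold above the highest dFLEx tumor. The means were 0.371 ± 0.247 CPM (SD, n = 3) in dFLEx and 114 ± 92.2 CPM (SD, n = 2) in KP. The log2 fold change was -8.24 (SE 0.98, adjusted p = 0.0463, edgeR). This call rested on all but 1 of the tumors: the adjusted p was 0.183 without 170019, 0.155 without 170024, 0.0538 without 170025, 0.0724 without 3800 and 0.00977 without 3802, while the log2 fold change stayed between -8.95 and -6.84. Per library total, the duplicates gave 0.242 and 0.176 CPM in 170019, 0.241 and 0.146 in 170024, 0.605 and 0.67 in 170025, and 186 and 193 in 3800.

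Nefm followed the same order of tumors at the upper end. It stood at 0.249 CPM in 170019, 0.139 in 170024 and 1.11 in 170025, from 10, 8 and 88 reads, and at 317 CPM in 3800 and 75.3 CPM in 3802. Again the groups did not overlap, with the lower KP tumor 68.0-fold above the highest dFLEx tumor. The log2 fold change was -8.59 (SE 1.22) and its adjusted p of 0.0553 with edgeR missed the threshold. DESeq2 on the same tumor sums gave Nefm an adjusted p of 2.19e-17. Without 3802, which left 1 KP tumor, the log2 fold change was -9.26. Over all alternatives the adjusted p ran from 9.28e-29, with DESeq2 counting each library as a replicate, to 0.209, with edgeR without 170019. Duplicates share RNA, so the lower end understates the spread between tumors.

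The light and medium chains are neighbours on chromosome 14. In the coordinates of the table (GRCm39), Nefl spans chr14:68321312-68326544 on the plus strand, and the models of Nefm span chr14:68320039-68362295 on the minus strand, so that Nefl lies inside the interval of Nefm. Their exons share 1108 bases (chr14:68321312-68322419), where the first exon of Nefl meets the last exon of a long Nefm transcript. The counting ignored strand and dropped reads lying over several genes, so reads from these bases entered neither gene. They make up 32.8% of the exonic length of Nefl and 19.2% of that of Nefm, and levels per kilobase were therefore taken over the exonic bases that no other gene shares.

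On that scale the ratio of Nefm to Nefl was 0.861 in 3800 and 0.751 in 3802. In the dFLEx tumors it was 0.486, 0.324 and 0.823, from few reads. The heavy chain did not accompany the others in the KP tumors. Per kilobase, Nefh stood at 0.0202 CPM in 3800 against 78.8 for Nefl in the same tumor, and at 0.132 CPM in 3802 against 21.5 for Nefl.

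Nefh, the heavy chain, was at trace level in all 5 tumors. Its CPM was 0.423 in 170019, 0.433 in 170024 and 0.328 in 170025, and 0.0806 in 3800 and 0.528 in 3802, from at most 26 reads in any tumor. The KP tumors lay on either side of the dFLEx tumors. The log2 fold change was 0.40 (SE 1.41, adjusted p = 0.97, edgeR), and its sign changed when KP tumor 3800 was left out (-0.26) and under upper-quartile scaling (-0.08).

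The remaining neuronal members were also low. Ina stood at 0.622, 0.538 and 0.0252 CPM in 170019, 170024 and 170025 and at 0.349 and 2.60 CPM in 3800 and 3802, with a fold change in log2 of -1.90 (SE 1.43, adjusted p = 0.81, edgeR) that became 0.18 without 3802. Of its exonic bases, 14.1% lie over Nt5c2 on the other strand. Prph stood at 1.39, 3.59 and 0.428 CPM in the dFLEx tumors and at 0.457 and 2.52 CPM in the KP tumors, with a fold change in log2 of 0.29 (SE 1.14, adjusted p = 0.974, edgeR). The sign for Prph turned under library totals (-0.06), upper-quartile scaling (-0.13) and a minimum of 1 CPM (-0.01), and without 170024 (-0.72) or 3800 (-0.33). For Ina and Prph the groups overlapped, and their highest levels came from tumors of different groups. Thus of the 5 neuronal chains, Nefl and Nefm were the abundant ones in KP tumors, and the others did not exceed 3.6 CPM anywhere.

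Markers of neurons were examined beside these chains. Of 15 neuron markers, 12 had a negative and 3 a positive log2 fold change (median -1.37), none was called with edgeR, 2 had an unadjusted p below 0.05 and DESeq2 called 2. Their summed level was 140 CPM in 170019, 195 in 170024 and 124 in 170025, against 657 in 3800 and 278 in 3802. Stmn2 and Uchl1 carried most of the sum in the KP tumors: without them the other 13 genes summed to 57.1, 125 and 112 CPM in dFLEx and 167 and 85.6 CPM in KP tumors, and the groups overlapped. Stmn2, a microtubule-regulating protein of growing axons, had the lowest log2 fold change of the list at -5.36 (adjusted p = 0.0744, edgeR). It stood at 4.43, 5.57 and 2.48 CPM in dFLEx and 279 and 61.7 CPM in KP tumors. Uchl1, a deubiquitinase abundant in neurons, stood at 78.6, 64.9 and 9.13 CPM in dFLEx and 210 CPM and 131 CPM in KP tumors. Gap43, a growth cone protein, and Mapt (tau), which had the highest log2 fold change of the list at 1.33, showed overlapping groups. The KP tumors differed in which markers they held. Elavl3, Elavl4 and Rbfox3, RNA-binding proteins of neurons, had 2, 11 and 6 reads in 3800 and 134, 53 and 140 reads in 3802, where their CPM was the highest of the 5 tumors, while Elavl4 had 0 reads in 170025. Map2, a dendritic microtubule protein, stood at 104 CPM in 3800 and 5.24 CPM in 3802, and Tubb3, a neuronal tubulin, at 27.2 and 16.4 CPM. The part of neurons in the level of Nefl and Nefm was not tested.

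Gfap and the glial markers were examined next. Gfap stood at 0.498, 0.364 and 0.189 CPM in 170019, 170024 and 170025 and at 0.322 and 0.0813 CPM in 3800 and 3802, from at most 24 reads, with a fold change in log2 of 0.75 (SE 1.46, adjusted p = 0.941, edgeR). Of 11 Schwann cell and glia markers, 10 had a log2 fold change of 0 or more and 1 a negative value (median 1.37), none was called with edgeR, 4 had an unadjusted p below 0.05 and DESeq2 called 4. Ngfr, the low-affinity neurotrophin receptor, gave the highest value of this list, 7.06 (adjusted p = 0.0784, edgeR), and stood at 121, 201 and 603 CPM in dFLEx against 3.44 and 1.14 CPM in KP tumors. Erbb3, a neuregulin receptor of Schwann cells, gave the lowest, -2.55. The myelin genes Pmp22 (log2 fold change 0.00) and Mbp (1.23) overlapped between groups. The glial list summed to between 75.8 and 689 CPM, of which Ngfr made most in the dFLEx tumors: without it the other 10 genes summed to 90.5, 126 and 86.7 CPM in dFLEx and 80.4 and 74.6 CPM in KP tumors.

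Nestin separated the groups at a higher level of expression. Nes stood at 50.3 CPM in 170019, 124 in 170024 and 80.3 in 170025, and at 583 CPM in 3800 and 635 CPM in 3802. The KP tumors lay 4.72-fold or more above every dFLEx tumor, and they lay close to each other, with a mean of 609 ± 36.7 CPM (SD, n = 2) against 84.8 ± 36.9 CPM (SD, n = 3). The log2 fold change was -2.85 (SE 0.58), which edgeR did not call (adjusted p = 0.117) and DESeq2 on tumor sums did (adjusted p = 0.000134). Over all alternatives the adjusted p ran from 6.45e-13, with DESeq2 counting each library as a replicate, to 0.371, with edgeR without 170024. The log2 fold change stayed between -3.24 and -2.63 with any 1 tumor left out.

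The 4 myogenic progenitor markers, all transcription factors of muscle precursors, had negative log2 fold changes as well (median -3.57). Their sum was 9.50, 35.4 and 17.3 CPM in 170019, 170024 and 170025, and 239 and 334 CPM in 3800 and 3802, so the order of the 5 tumors by this sum was the order by Nes. None of the 4 was called with edgeR, 3 had an unadjusted p below 0.05 and DESeq2 called 3. Myf5, an early myogenic factor, had the lowest log2 fold change at -6.30 (adjusted p = 0.0517, edgeR) and Pax7, the satellite cell factor, the highest at -1.26. In bulk tissue, fewer cells of a type and less RNA per cell cannot be told apart, for nestin as for every gene described here.

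Vimentin and desmin together made up most of the measured filament transcripts. Promoter sequences were read from RefSeq (GRCm38.p6), whose table held 7 of the 10 members by symbol; Nefl, Nefm and Nefh had no entry. The 250 bases before the start are shown 5′ to 3′ for the 4 members whose level was highest or whose groups did not overlap, so that their layouts can be compared. Capitals mark, on either strand, TATAAA (the TATA box), CAGCTG (an E-box of the kind bound by myogenic factors) and CCAAT (the CCAAT box), none of which overlapped another.
Nes, chr3:87970843-87971092, plus strand: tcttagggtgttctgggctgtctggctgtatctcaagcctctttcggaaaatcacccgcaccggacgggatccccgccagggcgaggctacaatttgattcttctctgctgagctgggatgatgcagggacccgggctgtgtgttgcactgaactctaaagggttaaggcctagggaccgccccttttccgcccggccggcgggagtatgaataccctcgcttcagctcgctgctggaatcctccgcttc
Vim, chr2:13574061-13574310, plus strand: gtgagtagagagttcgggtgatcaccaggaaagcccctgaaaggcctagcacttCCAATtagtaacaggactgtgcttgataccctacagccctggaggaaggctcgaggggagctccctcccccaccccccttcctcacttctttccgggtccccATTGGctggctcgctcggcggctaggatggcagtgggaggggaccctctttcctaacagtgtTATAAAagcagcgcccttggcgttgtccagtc
Des, chr1:75360042-75360291, plus strand: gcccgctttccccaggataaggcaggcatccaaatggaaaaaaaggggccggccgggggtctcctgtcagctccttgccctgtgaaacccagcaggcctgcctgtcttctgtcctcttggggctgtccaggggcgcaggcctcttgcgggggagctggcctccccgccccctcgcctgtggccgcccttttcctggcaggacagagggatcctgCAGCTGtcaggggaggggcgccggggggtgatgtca
Synm, chr7:67759743-67759992, minus strand: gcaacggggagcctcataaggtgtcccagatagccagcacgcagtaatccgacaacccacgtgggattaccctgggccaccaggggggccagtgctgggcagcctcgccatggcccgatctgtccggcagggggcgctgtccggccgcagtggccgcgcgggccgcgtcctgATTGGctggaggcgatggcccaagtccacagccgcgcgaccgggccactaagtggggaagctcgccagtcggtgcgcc
The Vim window held TATAAA 32 to 27 bases before the start and CCAAT on each strand, the Des window held CAGCTG 36 to 31 bases before the start, the Synm window held CCAAT on the opposite strand, and the Nes window held none of the 3. Of all 32851 promoters in the table, 12.4% held TATAAA, 13% CAGCTG and 33.8% CCAAT in the same 250 bases. The CIC octamer, TGAATGAA or TGAATGGA, was found in none of the 7 member windows and in 2.07% of all promoters. A match or its absence describes these letters only.

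Vimentin was among the most abundant transcripts. Vim stood at 715 CPM in 170019, 1181 in 170024 and 1867 in 170025, and at 3668 CPM in 3800 and 768 CPM in 3802. The KP tumors were the highest and the second lowest of the 5, so the groups overlapped. Per kilobase it ranked 33 from the top of 24743 tested genes in 3800 and 563 in 170019. In log2 the fold change was -0.82 (SE 0.75, adjusted p = 0.858, edgeR), and it turned to 0.88 when 3800 was left out.

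Fibroblast markers, which are collagen chains, small proteoglycans and the receptor gene Pdgfra, summed to 4015, 6870 and 13057 CPM in 170019, 170024 and 170025. Vim had the same order within dFLEx. In the KP tumors the sums were 4379 CPM in 3800 and 1920 CPM in 3802. None of the 6 fibroblast markers was called with edgeR or DESeq2 and 2 had an unadjusted p below 0.05, with log2 fold changes from 0.07 for the proteoglycan Dcn to 2.30 for the collagen chain Col1a1 (median 1.10). Tumor 3800 therefore held the most Vim of the 5 but neither the highest nor the lowest fibroblast sum.

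Desmin was the most abundant member, per kilobase, in 3 tumors (170019, 170024 and 3802). Des stood at 1600 CPM in 170019, 3224 in 170024 and 863 in 170025, and at 344 CPM in 3800 and 1267 CPM in 3802. Tumor 3802 lay among the dFLEx tumors, so the groups overlapped. In log2 the fold change was 1.23 (SE 0.80, adjusted p = 0.746, edgeR) and stayed above 0, between 0.59 and 2.48, with any 1 tumor left out. Per kilobase, Des was 3.00 and 3.66 times Vim in 170019 and 170024 and 2.21 times Vim in 3802, but 0.621 times in 170025 and 0.126 times in 3800.

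Markers of mature muscle fibers were examined beside desmin. The 9 skeletal myocyte markers summed to 8168, 32607 and 9357 CPM in 170019, 170024 and 170025, and to 1613 and 4070 CPM in 3800 and 3802. All 9 had a positive log2 fold change (median 2.53), none was called with edgeR, 6 had an unadjusted p below 0.05 and DESeq2 called 3. The values ran from 0.15 for the giant sarcomere spring Ttn to 3.17 for the fast myosin heavy chain Myh4. The most abundant were Acta1 (skeletal actin), at 3010, 10350 and 3013 CPM in dFLEx and 532 and 1402 CPM in KP tumors, with Tnnt3 (fast troponin T) and Mylpf (fast myosin light chain). Des and this sum were highest in 170024 and lowest in 3800, but 3802 held more Des than 170025 at a smaller sum, and the part of muscle tissue in the desmin level was not tested.

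**Figure D2:**
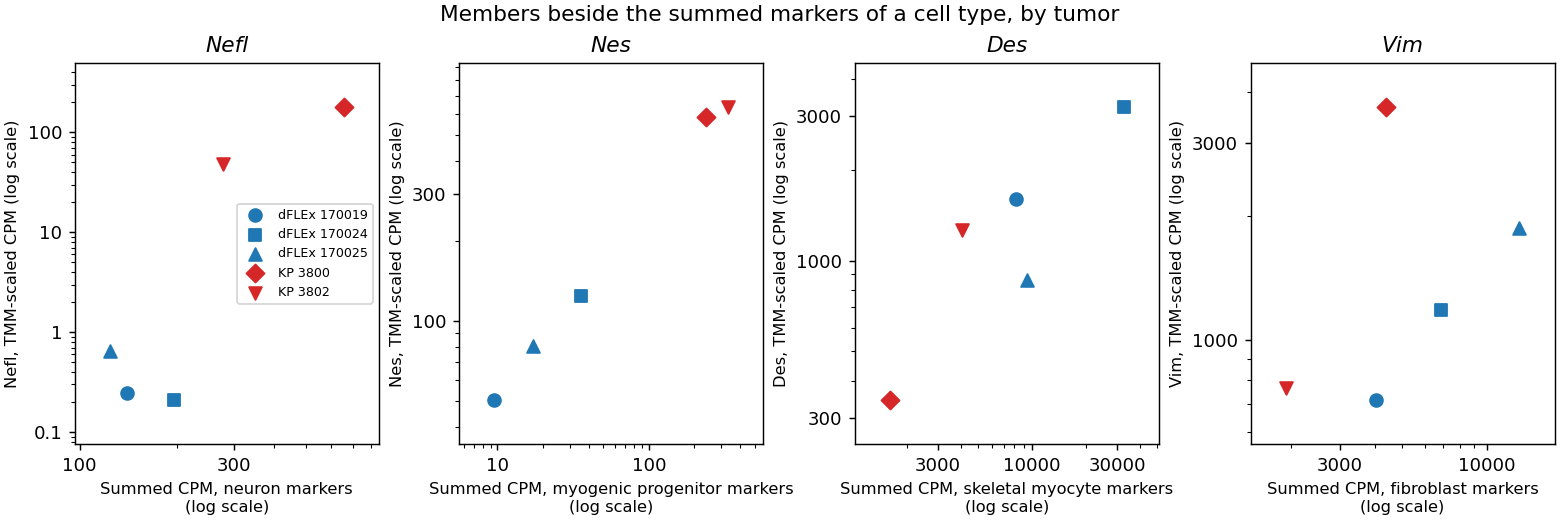
Levels of Nefl, Nes, Des and Vim (TMM-scaled CPM, log scale) against the summed CPM of neuron, myogenic progenitor, skeletal myocyte and fibroblast markers (log scale), 1 point per tumor, dFLEx in blue and KP in red. The order of the tumors by Nes was their order by the progenitor sum, in which only Myog was higher in 3802 than in 3800. Tumor 3800 had the most Vim (3668 CPM) at a fibroblast sum of 4379 CPM.

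Synemin was the member that stood higher in every dFLEx tumor. Synm stood at 23.98 CPM in 170019, 112 in 170024 and 79.7 in 170025, and at 8.13 CPM in 3800 and 13.7 CPM in 3802. The gap was narrow, with the lowest dFLEx tumor 1.76-fold above the higher KP tumor. The means were 71.8 ± 44.4 CPM (SD, n = 3) and 10.9 ± 3.91 CPM (SD, n = 2). The log2 fold change of 2.72 (SE 0.83) was not called with edgeR (adjusted p = 0.26) and was with DESeq2 on tumor sums (adjusted p = 0.0143). Over all alternatives the adjusted p ran from 2.83e-05, with DESeq2 counting each library as a replicate, to 0.779, with edgeR without 170024. The log2 fold change stayed between 2.2 and 3.16 with any 1 tumor left out. Relative to its partner Des per kilobase, Synm was 0.00714, 0.0165 and 0.0439 in the dFLEx tumors and 0.0112 and 0.00513 in the KP tumors, so this ratio overlapped between groups. Relative to Vim per kilobase it was 0.0214, 0.0604 and 0.0273 in dFLEx and 0.00142 and 0.0114 in KP tumors, without overlap.

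**Figure D3:**
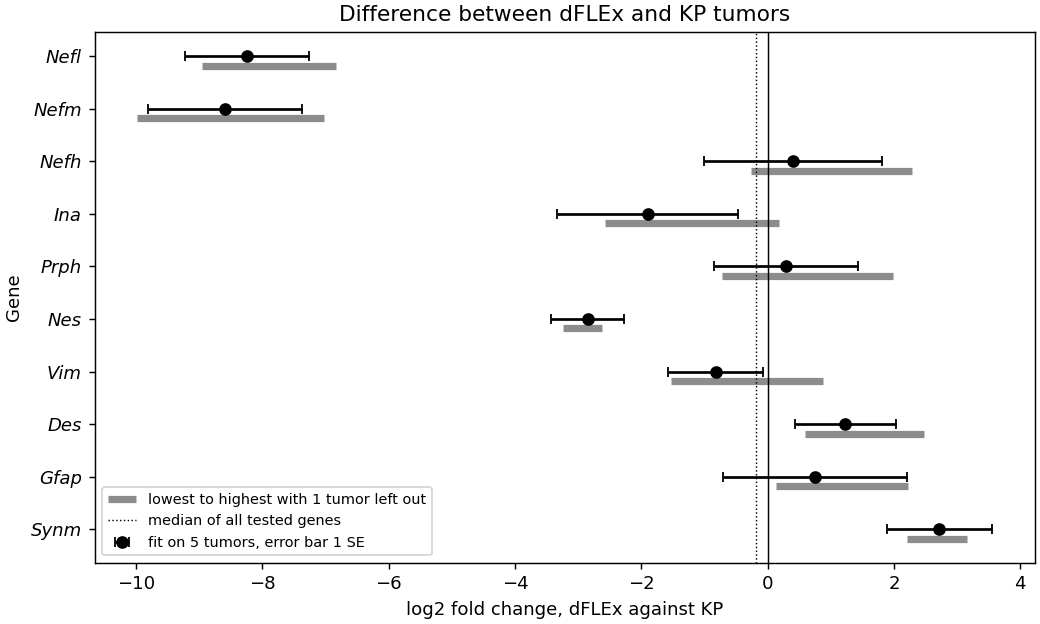
Log2 fold change of dFLEx against KP for each gene with 1 SE (points and bars), the range when 1 tumor is left out (grey bars) and the median of all tested genes (dotted line). Nefl, Nefm and Nes stayed below 0 and Des, Gfap and Synm above 0 in every such fit, while the ranges of Nefh, Ina, Prph and Vim crossed 0.

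The make-up of the filament transcripts was compared per kilobase within each tumor, as shares of the summed level of the 10 genes. Des and Vim took 73.5% and 24.5% in 170019, 76.2% and 20.8% in 170024, and 36.9% and 59.4% in 170025. In 3800 they took 8.78% and 69.7%, and in 3802 54.2% and 24.5%. Nes took between 1.27% and 1.89% in dFLEx tumors, and 8.19% in 3800 and 14.97% in 3802. Nefl and Nefm together with Nes took nearly all of what Des and Vim left in the KP tumors, with Nefl at 7.10% and 3.24% and Nefm at 6.11% and 2.44% in 3800 and 3802, against at most 0.0436% for Nefl and 0.0358% for Nefm in any dFLEx tumor. Synm reached 1.62% in 170025 and 0.0986% in 3800. The summed level itself did not separate the groups, at 616, 1198 and 662 CPM per kilobase in dFLEx and 1110 and 661 CPM per kilobase in KP tumors.

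**Figure D4:**
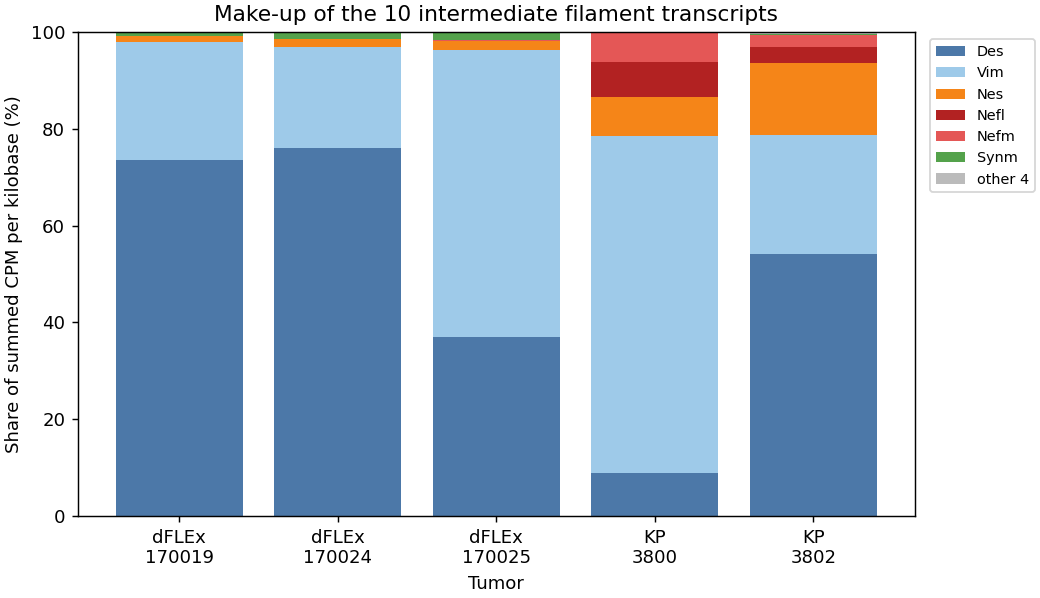
Share of each gene in the summed CPM per kilobase of the 10 genes (%), 1 bar per tumor. Des and Vim filled nearly all of the 3 dFLEx bars, and Nes, Nefl and Nefm were visible only in the KP bars apart from Nes at 1.27% to 1.89% in dFLEx.

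Proteins that bind, link or turn over the filaments were then examined in 5 lists of 30 genes, all tested. A single gene was called, against 0.101% of all tested genes called higher and 0.0808% called lower. This was Cdk5r2, which encodes p39, an activator of the kinase Cdk5 that phosphorylates neurofilament tails. Cdk5r2 stood at 5.47, 6.45 and 7.15 CPM in 170019, 170024 and 170025. In 3800 and 3802 it stood at 0.0537 and 0.0813 CPM, from 4 and 2 reads. Its log2 fold change was 6.58 (SE 0.90, adjusted p = 0.0486, edgeR). The edgeR call was lost without 170019 (adjusted p = 0.187), 170024 (0.218) or 170025 (0.0951). It was also lost under library totals (0.0752), DESeq2 size factors (0.052) and upper-quartile scaling (0.072). Leaving out 3800 or 3802 left 1 KP tumor, and the log2 fold change of Cdk5r2 was then 6.41 and 6.85. The call did not hold without 3800 either. Over all alternatives the adjusted p of Cdk5r2 ran from 1.09e-23, with DESeq2 counting each library as a replicate, to 0.218, with edgeR without 170024. The direction of Cdk5r2 was opposite to that of Nefl and Nefm. Cdk5r1, which encodes the other Cdk5 activator, p35, had the lowest log2 fold change of that list of 7, at -1.30, and the list's median was -0.62.

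The other 4 lists had no call with edgeR. Of the 3 nuclear lamins, Lmna ran lowest at -1.47 and Lmnb1 highest at 1.18, with 1 unadjusted p below 0.05 and none called by DESeq2. Lmna, the A-type lamin gene, stood at 281, 290 and 235 CPM in dFLEx and 801 and 686 CPM in KP tumors, and its groups did not overlap. Among the 5 other cytoplasmic filament genes, the lens gene Bfsp1 gave 2.02 and Sync (syncoilin, a desmin partner) -1.97, with 1 unadjusted p below 0.05 and 1 call by DESeq2. Of the 7 cytolinkers, large proteins that tie filaments to other structures, 6 had a negative value (median -1.81). They ran from -2.72 for Ppl (periplakin) to 0.10 for Evpl (envoplakin), with 1 unadjusted p below 0.05 and 1 call by DESeq2. With 1 tumor left out, the values of Plec, Dst and Macf1 reached 0.84, 0.37 and 1.76, while the other negative values stayed below 0. The 8 partners of desmin and synemin in muscle split evenly in sign, from -3.35 for Vcl (vinculin) to 1.09 for the small heat shock protein Cryab, with no unadjusted p below 0.05 and no call by DESeq2. Vcl and Sync turned to 1.91 and 1.74 without tumor 3800.

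The remaining marker lists, checked for other cells the tumors could hold, also had no call with edgeR. Of 8 endothelial markers all were positive (median 1.16, Tek 0.79 to Pecam1 2.15), with 1 unadjusted p below 0.05 and 1 call by DESeq2. Of 6 macrophage markers 5 were negative (median -1.21, C1qa -2.45 to Cd68 0.24), with 3 unadjusted p below 0.05 and 2 calls by DESeq2, and their sums were 920 to 1097 CPM in dFLEx and 2241 and 4626 CPM in KP tumors. The 8 smooth muscle and pericyte markers were split (median 0.33, Cnn1 -1.73 to Rgs5 2.38), with 1 unadjusted p below 0.05 and no call by DESeq2. Over all 8 marker lists, 22 of 67 genes had an unadjusted p below 0.05, against 10.6% of all tested genes. DESeq2 on tumor sums called 15 of the 67, against 1516 of all 24743 tested genes. The lists were chosen with earlier results of these data known, so nothing was read from these counts. The part of these cells in the members' levels was not tested.

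The simple keratins, filament proteins of epithelia, did not all lie to 1 side. Krt8 stood at 1.34, 0.902 and 0.416 CPM in dFLEx and 110 CPM and 39.0 CPM in KP tumors (log2 fold change -6.40, adjusted p = 0.048, edgeR), and its partner Krt18 at 1.57, 1.53 and 0.605 CPM against 212 and 151 CPM (-7.20, adjusted p = 0.0335, edgeR). Leaving out 170019, 170024, 170025 or 3800 ended the call of Krt8 (adjusted p from 0.0786 to 0.19), and leaving out any 1 dFLEx tumor ended that of Krt18 (0.0506 to 0.179). The other 2 genes of that list of 4 were low and not called: Krt7 was at most 1.64 CPM and lay above both KP tumors in each dFLEx tumor (1.51 in log2), and Krt19 was at most 4.53 CPM with overlapping groups (-0.28, and 0.70 without 3800).

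The 3 protein-coding genes nearest on each side of the Nefl and Nefm pair were also examined. None of the 6 was called with edgeR or with DESeq2 on tumor sums, and 1 (Adamdec1) had an unadjusted p below 0.05. Dock5 stood at 4.95, 9.28 and 23.0 CPM in dFLEx and 74.0 and 9.10 CPM in KP tumors, and Kctd9 between 8.37 and 29.4 CPM in all 5. Gnrh1, Adam7, Adamdec1 and Adam28 did not exceed 2.97 CPM in any tumor. Adamdec1 and Gnrh1 lay lower in every dFLEx tumor than in either KP tumor, Adamdec1 with at most 0.0746 CPM against 0.725 and 0.935 CPM.

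Genes whose level followed a member most closely were sought over the 5 tumors among the 15274 genes averaging 1 CPM or more. The measure was the root mean square difference of log2 CPM after each gene was centred on its mean. Nearest to Nefl were Rspo4 (0.44), an R-spondin ligand of the Wnt pathway, Eno1b (0.48), an enolase gene that shares sequence with Eno1 and whose reads are therefore uncertain, and Nefm (0.50). Rspo4 stood at 0, 0 and 0.0126 CPM in dFLEx and 31.1 and 6.18 CPM in KP tumors. Nearest to Nes were Tmem132b (0.21), Ifit3b (0.22) and Itga7 (0.22), the last an integrin chain of muscle at 22.7, 67.3 and 31.8 CPM in dFLEx and 206 and 241 CPM in KP tumors. Nearest to Des were Adprhl1 (0.13), Rtn2 (0.14) and Aamdc (0.15), and Rtn2 stood at 185, 413 and 100.2 CPM in dFLEx and 51.1 and 175 CPM in KP tumors. Likeness here describes levels over 5 tumors only.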

How the data were processed

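Bulk RNA-seq (paired-end, rRNA-depleted) was analysed for 9 of the 10 labelled libraries. Tumor 3802 entered with its first library, and its second is not analysed here. Per the labels, the authors trimmed reads with Trimmomatic (0.39) and aligned them with STAR (2.7.10a) to mm39. They deposited raw counts per gene from featureCounts (2.0.3), without normalization. Per the file headers, strand was ignored, each mate was counted, and multimapping reads and reads over several genes were dropped. Symbols came from GENCODE M39 (56017 of 56750 features).

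Counts were summed per tumor, since duplicates share RNA. They were filtered with filterByExpr, scaled by TMM and tested with edgeR (4.0.16) glmQLFit and glmQLFTest (R 4.3.3, Benjamini-Hochberg over all 24743 tested genes, threshold 0.05), with DESeq2 (1.42.0) and other settings as alternatives. SE is the absolute log2 fold change over the square root of F. The fitting scripts were tested on simulated data. P-values measure the spread between tumors, and counting error is larger than totals imply because mates were counted singly. A count of 3 equals 0.0648 to 0.146 CPM per library. Tables and figures used pandas (2.3.3) and matplotlib (3.10.9) in Python (3.11.15).

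The members and gene lists were chosen with earlier results of these data known. Named genes were all members; in each list the called genes and those with the highest and lowest log2 fold change; the 3 most abundant neuron, Schwann cell and myocyte markers; the 3 nearest protein-coding genes on each side of Nefl and Nefm; the 3 genes most like Nefl, Nes and Des; and Krt8 and Krt18. Elavl3, Elavl4, Rbfox3, Map2, Tubb3, Krt7, Krt19, Pdgfra, Myod1, Myog, Plec, Dst and Macf1 were picked after values were seen. So were the marker sums without leading genes and the 4 promoters shown. An allele of the KP model and a marker gene are not reported here.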

Additional observations from a re-analysis of the deposited data

How the results depend on the processing

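Counts of calls depended strongly on the unit of replication and the tool. The fit on tumor sums called 45 genes, 1 member, 1 partner gene and no marker. Over all tested genes, the member list, the partner lists and the marker lists, the calls were 3344, 4, 8 and 22 with libraries as independent samples, 2476, 4, 8 and 14 with the duplicate number added as a replicate block (no member changed sign), 1516, 4, 3 and 15 with DESeq2 on tumor sums, and 5042, 4, 12 and 32 with DESeq2 on libraries. Duplicates share RNA, so fits on libraries understate the spread between tumors. The settings also tested different numbers of genes, 24743 on tumor sums and 19538 on libraries. The number was 44382 without a filter, 15364 with a mean of at least 1 CPM and 19998 with first libraries. It ran from 22794 to 28650 with 1 tumor left out. Calls were 880, 3, 2 and 8 without a filter, and 80 in all, 2 members and 3 markers with a mean of at least 1 CPM. Members and markers called were 2 and 1 with DESeq2 size factors, 2 and 2 with upper-quartile scaling, and 2 and 1 with the first library of each tumor. No partner was called under library totals, DESeq2 size factors or upper-quartile scaling. With 1 tumor left out, calls ranged from 0 to 414 over all genes, 0 to 2 for members, 0 to 1 for partners and 0 to 2 for markers. Leaving out 3802 gave 414 and 2 members (Nefl and Nefm). Leaving out 170019 or 170024 gave 0, with 1939 and 1414 genes at an unadjusted p below 0.05. The cause was not tested.

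Library totals moved the median of all genes by -0.30 against TMM. Directions turned for several genes, and not only for low or near-zero values. Vim, an abundant gene, and Vcl, at -3.35 in the main fit, turned without 3800, as did Sync. With 1 tumor left out, log2 fold changes ranged from -0.26 to 2.28 for Nefh, -2.58 to 0.18 for Ina, -0.72 to 1.99 for Prph, -1.53 to 0.88 for Vim, -3.67 to 1.74 for Sync, -0.51 to 1.44 for Evpl, -6.57 to 1.91 for Vcl, -0.15 to 0.36 for Pmp22, -0.52 to 1.63 for Ttn, -0.54 to 1.84 for Dcn, -0.83 to 0.70 for Krt19 and 0.00 to 0.72 for Cd68. Under upper-quartile scaling Nefh was -0.08, Prph -0.13, Pmp22 -0.16 and Dcn -0.36. Under library totals Prph was -0.06, Evpl -0.15, Pmp22 -0.28, Ttn -0.06, Dcn -0.31 and Cd68 -0.03. With a mean of at least 1 CPM Prph was -0.01, Pmp22 -0.14 and Dcn -0.24. With libraries as independent samples Evpl, Pmp22 and Ttn were -0.09, -0.08 and -0.11, with the replicate block -0.11, -0.07 and -0.11, and with DESeq2 on libraries -0.11, -0.11 and -0.13. DESeq2 on tumor sums and DESeq2 size factors each gave -0.07 for Pmp22 and -0.07 for Dcn, and the first library of each tumor gave -0.13 for Dcn. Nefl, Nefm, Nes, Des, Gfap and Synm kept their direction under every alternative that tested them. Over the full exonic length, a choice made after seeing the data, the ratio of Nefm to Nefl was 1.04 in 3800 and 0.903 in 3802. Members below 1 CPM rest on few reads, and 2 KP tumors limit every comparison.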
